A study of Mus musculus with 8 samples.

Results

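The matrix proteases and their inhibitors are the genes of the matrix metalloproteinases (Mmp), the membrane-anchored ADAM proteases (Adam), the secreted ADAMTS proteases with thrombospondin repeats (Adamts), the ADAMTS-like proteins (Adamtsl) and the tissue inhibitors of metalloproteinases (Timp). Members were taken by gene symbol. Among the 39614 annotated loci of the deposited tables, 84 symbols matched, and of several loci with 1 symbol only that of highest mean was kept. They comprised 23 Mmp, 4 Timp, 33 Adam, 19 Adamts and 5 Adamtsl genes.

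RNA was measured in hearts of male Hsd:ICR(CD-1) mice, an outbred stock, at postnatal day 1 (P1, 4 hearts) and postnatal day 7 (P7, 4 hearts). The mice carried no transgene or treatment named in the labels. The atrial appendages had been taken off, each heart came from a separate mouse and gave 1 library, and ribosomal RNA had been depleted. The study asked what changes in the heart over the days in which the newborn mouse loses its capacity to regenerate myocardium.

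Matrix metalloproteinases are zinc enzymes that are made as inactive precursors, and together they cut collagens, proteoglycans and many other proteins outside the cell. ADAM proteases sit in the cell membrane and release ligands, receptors and adhesion proteins from the surface, while ADAMTS proteases mature procollagens and cut proteoglycans such as versican. Timps block the active site of most of these enzymes. In the growing heart these families take part in building and remodelling the matrix between the cardiomyocytes, the valves and the vessels.

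What the proteases share is a stretch of 3 histidines that holds the catalytic zinc. The coding sequence of each member (the longest one in GENCODE M21, on GRCm38) was searched for it, and 62 of the 84 held it. All 23 Mmp and all 19 Adamts genes did, as did 20 of 33 Adam genes, and none of the 5 Adamtsl or 4 Timp genes did. The site is shown for the 9 catalytic members that rose between P1 and P7 and for Adam1a, whose value belongs to a locus joined with another gene, with the histidine codons in capitals, so that the likeness within each family can be seen. Sites of the 3 Adamts genes lie across an intron, which the interval includes, whereas the other 7 lie within 1 exon.
Mmp2 (chr8:92839279-92839311, plus strand, exon 8): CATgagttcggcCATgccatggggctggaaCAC
Mmp14 (chr14:54437627-54437659, plus strand, exon 5): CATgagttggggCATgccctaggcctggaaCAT
Mmp15 (chr8:95368585-95368617, plus strand, exon 5): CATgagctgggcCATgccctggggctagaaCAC
Mmp11 (chr10:75926931-75926963, minus strand, exon 5): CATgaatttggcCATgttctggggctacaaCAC
Adam15 (chr3:89344780-89344812, minus strand, exon 11): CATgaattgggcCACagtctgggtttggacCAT
Adam19 (chr11:46125050-46125082, plus strand, exon 11): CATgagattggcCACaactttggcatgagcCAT
Adam1a (chr5:121520089-121520121, minus strand, exon 1): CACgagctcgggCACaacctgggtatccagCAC
Adamts2 (chr11:50775403-50776134, plus strand, exons 7 and 8): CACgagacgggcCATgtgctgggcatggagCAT
Adamts7 (chr9:90179456-90180640, plus strand, exons 7 and 8): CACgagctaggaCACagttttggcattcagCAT
Adamts10 (chr17:33538157-33538279, plus strand, exons 9 and 10): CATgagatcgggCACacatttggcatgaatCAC
The first histidine codon is followed by a glutamate codon (gag or gaa) in all 10. The site of Adam1a was identical to that of its near copy Adam1b. Of the Adam genes seen in the heart, Adam11, Adam22, Adam23, Adam32 and Adam4 held no such site.

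Levels are given as FPKM, fragments scaled to the length of the locus and to the size of the library, so that they can be compared between genes. At 1 kb of length, 1 FPKM stood for 14.3 to 22.7 fragments in the 8 libraries. Of the 84 members, 47 reached FPKM 1 in at least 1 heart and 38 did so in every heart. Those 47 (9 Mmp, 4 Timp, 13 Adam, 16 Adamts and 5 Adamtsl) were compared between the stages. The other 37 stayed under FPKM 1, with 28 of them under a mean of 0.1, and were not tested. The cardiomyocyte markers that define the tissue were abundant in every library (summed FPKM of 6 genes 17726 to 32163 in P1 and 21706 to 34546 in P7).

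Some libraries stood apart across the members. The P1 heart of replicate 4 held the highest P1 value for 38 of the 47 members and that of replicate 3 the lowest for 28. Among the P7 hearts, replicate 2 held the lowest value for 38 members and replicate 3 the highest for 24. The counts of calls are therefore given below with each heart left out, as are members that passed the test without P1 replicate 4 but not with it.

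In level, Timp2 was first, and the order among the next genes was not separated by the spread between hearts. Mean FPKM over the 8 hearts was 91.7 for Timp2, 43.2 for Mmp14, 43.1 for Mmp15, 40.9 for Adam1a, 38.5 for Adam15, 34.7 for Mmp2, 31.2 for Adam19, 30.4 for Timp3, 28.3 for Adam10, 24.2 for Adam9, 20.5 for Mmp23 and 17.5 for Adamts6. The lowest Timp2 value in P7, 106, lay above the highest P7 value of any other member. The plot of levels in each heart shows this order family by family.

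**Figure D1:**
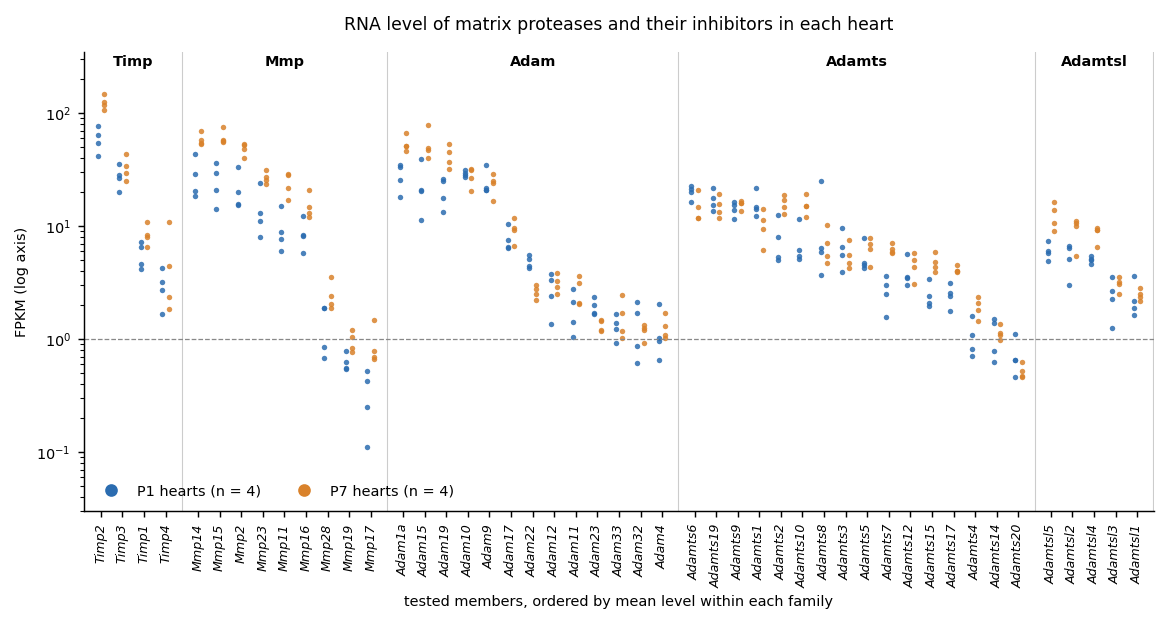
FPKM on a log axis of the 47 members that reached FPKM 1, grouped by family and ordered by mean level, with 1 point per heart (blue P1, orange P7, n = 4 each) and a dashed line at FPKM 1. The P7 points of Timp2 lie above every other point, and the P7 points of Mmp14, Mmp15, Mmp2 and Mmp11 lie above their P1 points.

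Between P1 and P7, 12 of the 47 tested members (25.5%) were differentially expressed, all higher in P7 and none lower. The call required a Benjamini-Hochberg adjusted p under 0.05 from limma on log2(FPKM + 1), adjusted over all 43172 tested loci, and mean FPKM that differed by a factor of 1.5 or more. Of the 17960 tested annotated loci, 7.74% were called higher in P7, 0.401% lower and 8.14% in either direction. Among the 38 members with FPKM 1 or more in every heart, 12 were called (31.6%), against 9.65% of such annotated loci. Among the 19 members with a mean FPKM of 10 or more, 10 were called (52.6%), against 10.8%. The 12 loci were those of the gelatinase Mmp2, the membrane-type enzymes Mmp14 and Mmp15, the stromelysin Mmp11, the inhibitor Timp2, Adam15, Adam19, Adam1a (joined with Mapkapk5), Adamts2, Adamts7, Adamts10 and Adamtsl5. The median log2 fold change (log2FC) of the tested members was 0.37, against 0.19 for all tested annotated loci. It was positive for 36 of the 47 (76.6%), against 67.6% of those annotated loci. After median-ratio scaling these medians became 0.19 and 0.00, so that the scaling alone moved the median of the annotated loci by 0.19 and left the members the same distance above it. That scaling called 16 members, 13 higher and 3 lower (Adam22, Adamts1 and Adamts6), in place of 12 and 0. Over all tested loci it raised the lower calls from 160 to 896, and it called 11.2% of annotated loci in either direction.

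The number of calls depended on single hearts and on base composition. Leaving out P1 replicate 1, 2, 3 or 4 left 5, 0, 1 or 18 called members, and leaving out P7 replicate 1, 2, 3 or 4 left 0, 8, 0 or 3. Calls over all tested annotated loci moved as well, to 4.60%, 0.935%, 2.39% or 16.0% and to 1.68%, 5.67%, 1.56% or 4.06% in the same order. Without P1 replicate 4 the 12 stayed called, and Adam22, Adamts15, Adamts17, Adamtsl4, Mmp16 and Mmp23 were added. When the trend of each library with the GC content of transcripts was subtracted, only the locus joined from Adam1a and Mapkapk5 was called, whose value cannot be given to Adam1a. That fit called 2.29% of tested annotated loci. A log2FC on this scale understates the change of weakly expressed genes. Because whole hearts were measured, more cells of a type and more RNA per cell cannot be told apart.

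**Figure D2:**
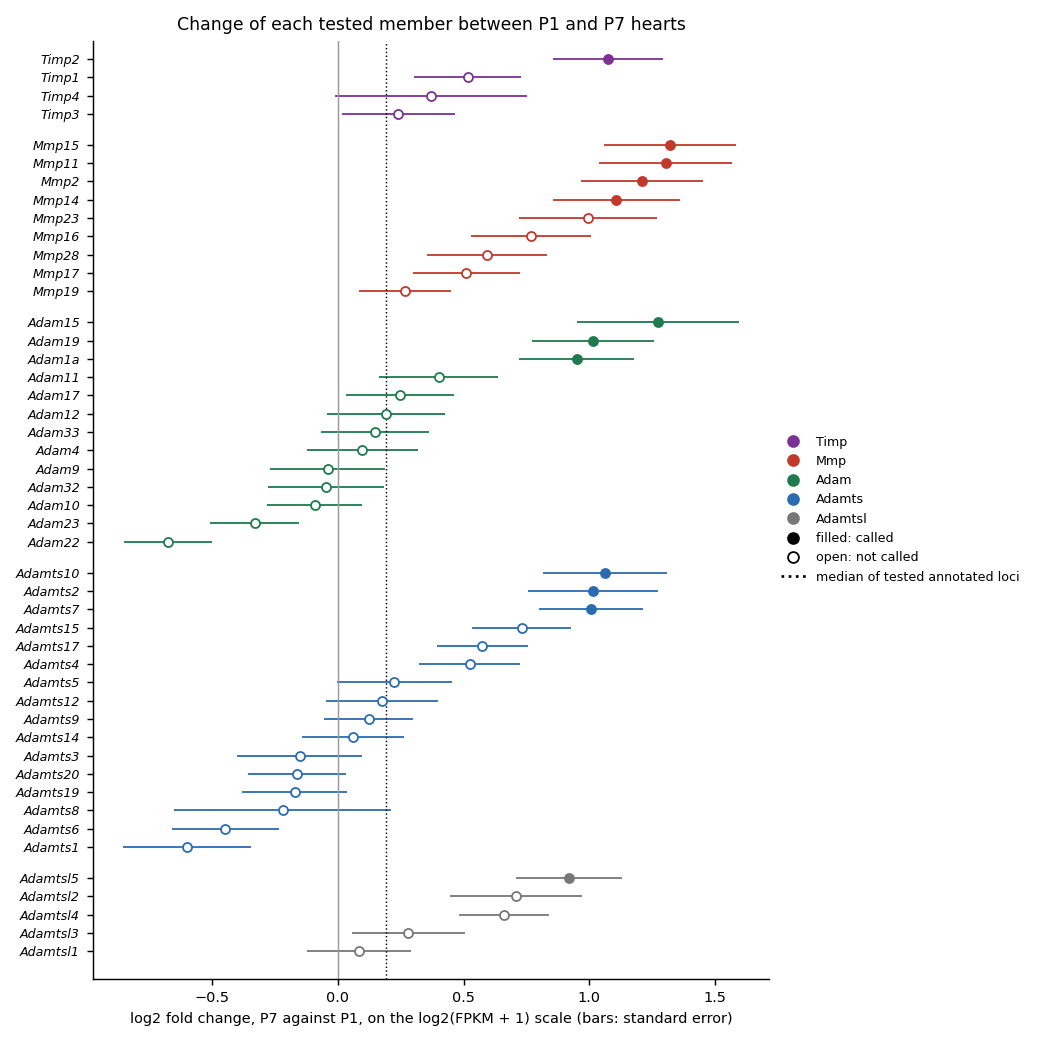
Log2FC of P7 against P1 on the log2(FPKM + 1) scale for the 47 tested members by family (bars, standard error; filled points, called), with a dotted line at 0.19, the median of all tested annotated loci. All 9 Mmp genes lie to the right of 0, while Adam and Adamts genes lie on both sides, from -0.68 for Adam22 to 1.27 for Adam15.

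Of the 4 inhibitors 1 rose. Timp2, which blocks Mmps and also docks the Mmp2 precursor onto Mmp14, had FPKM of 64.0, 54.1, 42.0 and 77.6 in the P1 hearts and 124, 106, 147 and 119 in the P7 hearts. Every P7 heart lay above every P1 heart. The mean went from 59.4 ± 15.1 to 124 ± 16.9 (SD, n = 4), a ratio of 2.09 (log2FC 1.07 ± 0.22 SE, limma adjusted p = 0.023). It stayed positive under all 18 alternative settings, with log2FC between 0.83 and 1.21, and was called in 11 of them. The Timp2 locus spans chr11:118301058-118355740.

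Timp3, which binds to the matrix and blocks ADAM and ADAMTS enzymes as well as Mmps, did not pass the test. Its values were 28.6, 26.7, 20.1 and 35.8 in P1 and 43.2, 25.2, 34.1 and 29.5 in P7 (log2FC 0.24 ± 0.23, limma adjusted p = 0.54), and the stages overlapped. The Timp3 gene lies on the opposite strand to Syn3, a synapsin gene, with which it shares 1733 exon bases (21.3% of its own). Syn3 was listed at nearly the same levels, 30.1 to 35.0 in P1 and 25.2 to 47.5 in P7. Whether strand was used in counting is not stated, so reads of the pair cannot be told apart and the Timp3 level is uncertain.

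Timp1, the secreted inhibitor known for its induction in injured tissue, had FPKM of 4.65, 6.47, 4.199 and 7.19 in P1 and 8.08, 6.48, 10.8 and 8.36 in P7. The stages overlapped only at 1 pair of hearts, and the difference did not pass (log2FC 0.52 ± 0.21, limma adjusted p = 0.22). Timp4, the Timp known for its expression in heart, had values of 3.21, 2.72, 1.66 and 4.23 in P1 and 10.8, 2.34, 4.46 and 1.83 in P7. Its higher P7 mean came from 1 heart: log2FC was 0.37 ± 0.38 (limma adjusted p = 0.57) with all hearts and -0.05 without P7 replicate 1. Timp2 thus held a larger part of the listed Timp FPKM in P7, 66.7% to 75.8% of the sum against 60.1% to 63.7% in P1. The sum includes Timp3, so these shares carry the uncertainty of its level.

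All 9 tested Mmp genes were higher on average in P7, where 67.6% of tested annotated loci had a positive log2FC, and 4 of them passed the test. Their median log2FC was 1.00, the highest of the families, against 0.44 for Timp, 0.15 for Adam, 0.15 for Adamts and 0.66 for Adamtsl. Every P7 heart lay above every P1 heart for 6 of the 9. Over all families this held for 17 of the 47 members (36.2%), against 17.3% of all tested annotated loci. Mmp17, which is in both counts, and Mmp19 reached FPKM 1 only in P7 hearts, so the filter favoured their direction. Most of the 14 untested Mmp genes had lower means in P7 than in P1, at values under FPKM 1.

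Mmp14, a membrane-anchored collagenase that activates the Mmp2 precursor, had FPKM of 29.1, 20.4, 18.6 and 43.6 in P1 and 57.8, 52.8, 68.8 and 54.2 in P7 (ratio 2.09, log2FC 1.11 ± 0.25, limma adjusted p = 0.033). Mmp2, a gelatinase made chiefly by fibroblasts, had 20.2, 15.6, 15.5 and 33.7 in P1 and 52.1, 47.8, 52.9 and 40.3 in P7 (ratio 2.27, log2FC 1.21 ± 0.24, limma adjusted p = 0.022). Both were separated between the stages in every heart, with P1 replicate 4 nearest to the P7 hearts.

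Mmp15, also a membrane-type enzyme, had FPKM of 29.3, 20.8, 14.1 and 36.0 in P1 and 56.3, 57.7, 74.9 and 55.8 in P7. Its log2FC of 1.32 ± 0.26 (ratio 2.44, limma adjusted p = 0.021) lay within the standard error of that of Mmp11. It was called in 13 of 18 alternatives, the most of any named member. Mmp11, an enzyme that is activated by furin inside the cell, had 8.78, 6.08, 7.69 and 15.1 in P1 and 28.3, 17.1, 21.7 and 29.1 in P7 (ratio 2.55, log2FC 1.30 ± 0.26, limma adjusted p = 0.022). In GENCODE M21 its exons share 155 bases with Chchd10 on the other strand, a mitochondrial gene listed at 185 to 303 FPKM in P1 and 325 to 453 in P7. The deposited loci, chr10:75923222-75932502 for Mmp11 and chr10:75933474-75940672 for Chchd10, do not overlap. Whether reads of the shared bases entered the Mmp11 value was not tested.

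The other 5 tested Mmp genes were positive without passing. Mmp23, an atypical membrane protease, had FPKM of 13.0, 11.1, 7.94 and 23.9 in P1 and 27.1, 23.4, 31.5 and 25.7 in P7 (log2FC 1.00 ± 0.27, limma adjusted p = 0.066). Only P1 replicate 4 overlapped the P7 hearts, and without it log2FC was 1.27 at a limma adjusted p of 0.0063. Mmp16, another membrane-type enzyme, had log2FC 0.77 ± 0.24 (limma adjusted p = 0.10). The weakly expressed Mmp28 had 0.683 to 1.89 FPKM in P1 and 1.89 to 3.51 in P7, and Mmp17 had 0.110 to 0.518 in P1 and 0.662 to 1.47 in P7. In both of these the stages did not overlap, at adjusted p of 0.21 and 0.23 (limma). Mmp19 had 0.547 to 0.785 FPKM in P1 and 0.771 to 1.21 in P7.

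The Mmps best known from wounds and inflammation were near the floor. The interstitial collagenases Mmp13 and Mmp8 reached at most 0.157 and 0.259 FPKM, the stromelysin Mmp3 at most 0.102, and Mmp1a at most 0.0731. At these depths 1 fragment at 1 kb stood for 0.0441 to 0.0699 FPKM, and for less on a longer transcript such as that of Mmp1a (2022 bases). The Mmp1a value thus rests on very few fragments. Mmp9, the other gelatinase and a product of neutrophils, had 0.136, 0.342, 0.413 and 0.249 FPKM in P1 and 0.141, 0.226, 0.0404 and 0.111 in P7. The neutrophil markers had a summed FPKM of 9 genes of 16.9 to 43.3 in P1 and 10.4 to 27.9 in P7. S100a8 (7.62 to 15.1 in P1, 2.10 to 12.2 in P7) and S100a9 (6.53 to 20.2 and 4.75 to 14.8) lay above the other listed ones in every heart. The part of neutrophils in Mmp9 and Mmp8 was not tested. Mmp12, the macrophage elastase, came closest to the limit at 0.954 FPKM in P1 replicate 3, just outside it, while Mmp19 at 1.21 and Adamts20 at 1.10 were just inside. All 10 Mmp genes of the cluster on chromosome 9, whose zinc sites lie between 7276573 and 7697646, stayed under FPKM 1.

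**Figure D3:**
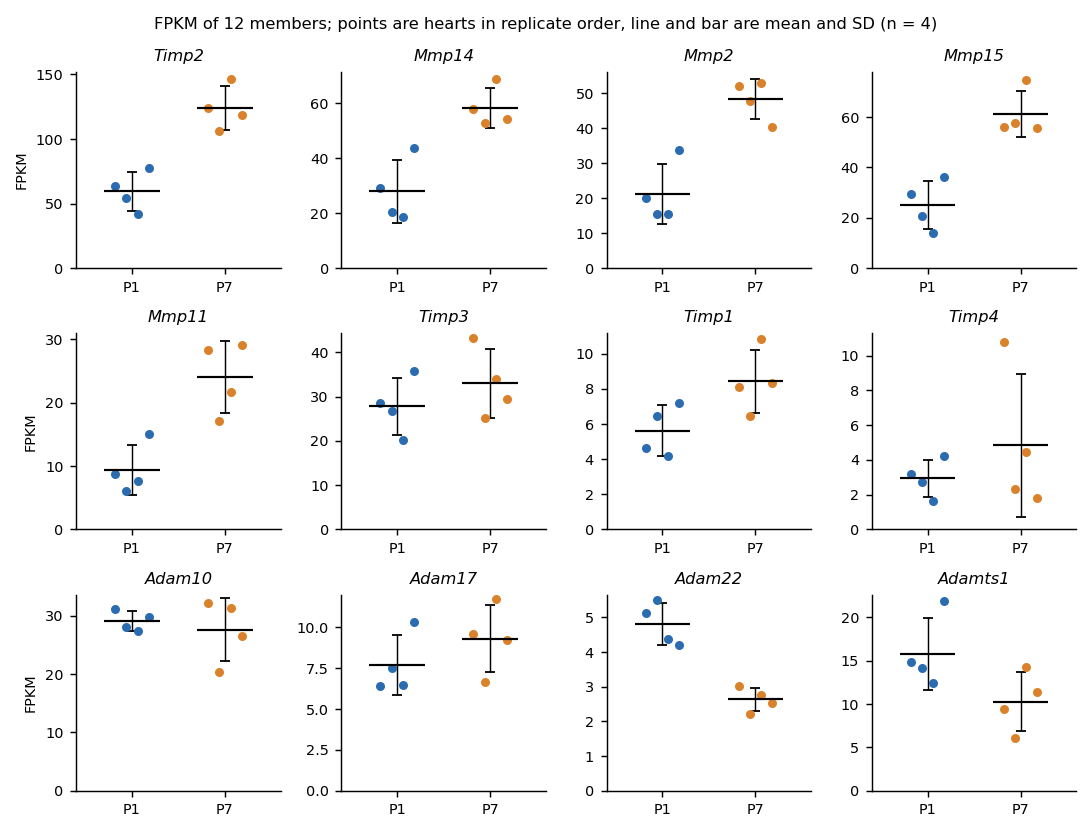
FPKM of 12 members, with 1 point per heart in replicate order, a line at the mean and a bar of 1 SD (n = 4 for P1, blue, and P7, orange). Timp2, Mmp14, Mmp2, Mmp15 and Mmp11 separate the stages upward and Adam22 downward, while Timp3, Timp1, Timp4, Adam10, Adam17 and Adamts1 overlap.

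Protease and inhibitor RNA were set against each other within each heart, where the scaling of the library drops out. These ratios are descriptions, and the pairs of single genes were chosen after their values were seen. Summed over the 23 Mmp genes, FPKM lay between 75.6 and 169 in P1 and between 215 and 269 in P7, and that of the 4 Timp genes 68.0 to 125 in P1 and 140 to 196 in P7. Their ratio was 1.13 ± 0.174 in P1 and 1.41 ± 0.0881 in P7 (SD, n = 4), and the ranges of 0.930 to 1.35 and 1.33 to 1.54 overlapped. Without Timp2 the ratios were 2.98 ± 0.518 and 5.36 ± 0.980 and no longer overlapped. Timp2 was the only Timp that rose and held 60.1% to 75.8% of the Timp sum, so leaving it out widened the difference by construction. What remained was mostly Timp3, whose level is uncertain, and no shift in balance can be read from it. Mmp14 stood at 0.459 ± 0.0765 of Timp2 in P1 and at 0.472 ± 0.0181 in P7, and Mmp2 at 0.352 ± 0.0644 and 0.392 ± 0.0516. The ranges of both ratios overlapped between the stages, while all 3 genes rose in level.

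**Figure D4:**
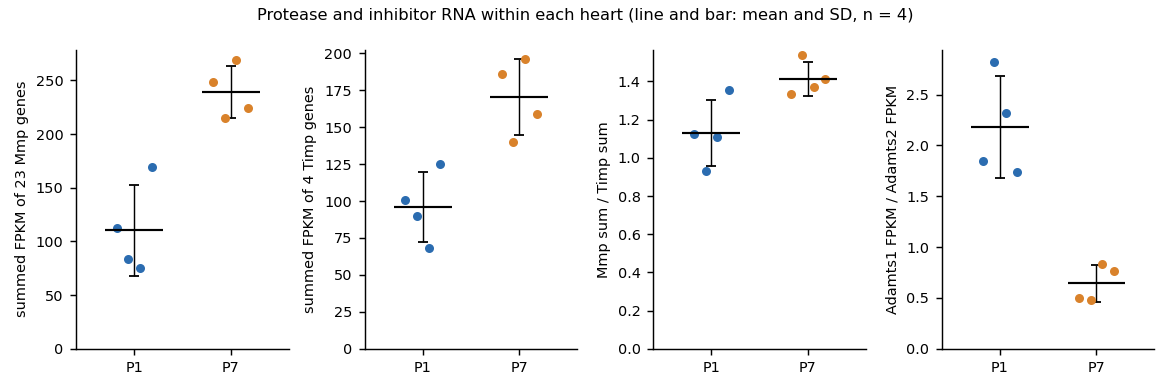
Summed FPKM of the Mmp and Timp genes, their ratio, and the ratio of Adamts1 to Adamts2 in each heart (points; line and bar, mean and SD, n = 4; all axes start at 0). The sums separate P1 from P7, the Mmp to Timp ratio overlaps (0.930 to 1.35 and 1.33 to 1.54), and the Adamts1 to Adamts2 ratio separates them downward.

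The promoters of the Timp2 and Mmp14 pair are shown because both genes rose with nearly the same ratio (RefSeq, GRCm38.p6, from 250 bases before to 50 after the start). Capitals mark the GC box, searched as GGGCGG, and the CCAAT box, searched as CCAAT, on both strands, which touch each other in the Mmp14 sequence.
Timp2 (chr11:118355362-118355661, minus strand): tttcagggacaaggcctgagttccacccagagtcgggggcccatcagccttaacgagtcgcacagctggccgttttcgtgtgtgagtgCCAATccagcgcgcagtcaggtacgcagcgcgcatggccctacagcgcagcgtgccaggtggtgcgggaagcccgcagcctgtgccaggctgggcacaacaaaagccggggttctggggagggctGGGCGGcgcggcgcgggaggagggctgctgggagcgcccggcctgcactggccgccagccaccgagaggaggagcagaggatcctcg
Mmp14 (chr14:54431348-54431647, plus strand): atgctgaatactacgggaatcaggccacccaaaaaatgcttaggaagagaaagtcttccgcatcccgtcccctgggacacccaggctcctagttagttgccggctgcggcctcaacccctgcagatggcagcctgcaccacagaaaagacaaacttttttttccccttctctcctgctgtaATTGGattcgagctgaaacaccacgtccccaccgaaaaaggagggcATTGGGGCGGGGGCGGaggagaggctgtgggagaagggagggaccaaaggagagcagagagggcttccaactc
Timp2 held 1 GC box and 1 CCAAT box and Mmp14 held 2 of each. Promoter entries were found for 28 of the 47 tested members (31 promoters). A GC box was present in 22 of these 31, against 35.7% of all 32851 promoters of this length, which include those of genes not expressed in heart. The AP-1 letters TGANTCA, known from inducible Mmp genes, were present in 1 of 31, against 7.81%, and in 13 of 58 when the promoters of untested members were counted too. TATAAA was present in 2 of 31, against 13.6%, and CCAAT in 9 of 31, against 37.4%. These matches describe the letters in this window.

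Among the 13 tested Adam loci 3 rose, those of Adam15, Adam19 and the joined Adam1a. Adam15, a protease with an integrin-binding domain, had FPKM of 20.4, 21.1, 11.4 and 39.3 in P1 and 47.4, 40.4, 78.8 and 49.3 in P7 (ratio 2.34, log2FC 1.27 ± 0.32, limma adjusted p = 0.047). Adam19, which is needed for the formation of heart valves and septa, had 25.3, 17.7, 13.3 and 25.9 in P1 and 45.3, 32.2, 52.98 and 37.0 in P7 (ratio 2.04, log2FC 1.02 ± 0.24, limma adjusted p = 0.039). In both, every P7 heart lay above every P1 heart, for Adam15 by a narrow margin over P1 replicate 4. Adam15 shares 20.6% of its exon bases with a transcript on the other strand, 4731419I09Rik.

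Adam1a, known as a sperm protein, was among the most abundant members at 25.6, 33.4, 18.1 and 34.7 FPKM in P1 and 51.4, 46.1, 66.3 and 51.5 in P7 (ratio 1.92, log2FC 0.95 ± 0.23, limma adjusted p = 0.040). The locus that carried the symbol also carried Mapkapk5, a widely expressed kinase gene, so the value belongs to the joined locus and cannot be given to Adam1a. In the annotation 24.0% of the Adam1a exon bases also belong to Mapkapk5 and 63.7% to Gm42878, both on the same strand. A further gene, Tmem116, shares 11.3% on the opposite strand. Mmp17 was the only other member at a joined locus. With joined loci left out of the fit, 10 members were called, since Adamts2 then stood at a limma adjusted p of 0.051.

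Adam10, the sheddase of Notch receptors, and Adam17, that of tumour necrosis factor, did not pass the test. Adam10 had FPKM of 31.2, 28.0, 27.3 and 29.7 in P1 and 32.1, 20.4, 31.3 and 26.6 in P7 (log2FC -0.09 ± 0.19, limma adjusted p = 0.78). Adam17 had 6.39 to 10.4 FPKM in P1 and 6.68 to 11.7 in P7 (log2FC 0.25 ± 0.21, limma adjusted p = 0.51). Adam9, a widely expressed relative, had 20.7 to 34.7 in P1 and 16.7 to 29.2 in P7 (log2FC -0.04 ± 0.23). For all 3 the stages overlapped.

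Among the Adam genes with no zinc site were the only tested members whose P7 hearts all lay below the P1 hearts. Adam22 and Adam23 are receptors for the secreted LGI proteins, best known in nerve, and have no protease activity. Adam22 had FPKM of 5.14, 5.50, 4.39 and 4.22 in P1 and 3.02, 2.22, 2.77 and 2.52 in P7, and Adam23 had 1.65, 1.99, 1.71 and 2.38 in P1 and 1.48, 1.18, 1.21 and 1.44 in P7. Non-overlap in this direction held for 2 of 47 members (4.26%), against 2.69% of annotated loci. Neither passed the test, at log2FC -0.68 ± 0.18 (limma adjusted p = 0.052) for Adam22 and -0.33 ± 0.18 (limma adjusted p = 0.33) for Adam23. Without P1 replicate 4 Adam22 passed (log2FC -0.73, limma adjusted p = 0.028). Adam22 was the member nearest to the threshold on its outer side and Adamts2, at 0.048, the nearest on its inner side. Adam8, a leukocyte protease, stayed at 0.206 to 0.415 FPKM in all hearts.

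Of the 16 tested Adamts genes 3 rose, each with a different class of substrate. Adamts2, the procollagen N-proteinase, had FPKM of 8.01, 5.01, 5.35 and 12.6 in P1 and 18.8, 12.7, 17.1 and 14.9 in P7 (ratio 2.05, log2FC 1.02 ± 0.26, limma adjusted p = 0.048). Adamts10, which acts on fibrillin microfibrils, had 5.16, 6.10, 5.48 and 11.6 in P1 and 15.03, 11.99, 19.4 and 15.1 in P7 (ratio 2.17, log2FC 1.06 ± 0.25, limma adjusted p = 0.035). Adamts7, which cuts cartilage oligomeric matrix protein, had 3.01, 2.53, 1.57 and 3.65 in P1 and 5.90, 5.80, 7.11 and 6.22 in P7 (ratio 2.33, log2FC 1.01 ± 0.21, limma adjusted p = 0.023). The stages of Adamts7 were apart by more than the range within either one, whereas those of Adamts2 and Adamts10 nearly met at P1 replicate 4.

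None of the Adamts proteases known to cut versican passed the test, although Adamts1 and Adamts15 did so in opposite directions after median-ratio scaling (log2FC -0.83 and 0.55, limma adjusted p of 0.020 and 0.034). Adamts1 had FPKM of 14.8, 14.2, 12.4 and 21.8 in P1 and 9.39, 6.09, 14.3 and 11.3 in P7 (log2FC -0.60 ± 0.25, limma adjusted p = 0.23). Adamts9 had 11.6 to 16.2 in P1 and 13.6 to 16.5 in P7, Adamts5 had 4.23 to 7.92 and 4.36 to 7.92, and Adamts4 had 0.708 to 1.59 and 1.44 to 2.38. Adamts15 was the exception in that its stages did not overlap, with 1.96 to 3.43 FPKM in P1 and 3.93 to 5.86 in P7 (log2FC 0.73 ± 0.20, limma adjusted p = 0.061, and 0.018 without P1 replicate 4). Versican itself (Vcan) had 36.3 to 60.1 in P1 and 27.4 to 41.9 in P7 and did not pass (log2FC -0.33 ± 0.22).

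Within single hearts the balance between Adamts1 and Adamts2 turned over. There was 1.73 to 2.82 times as much Adamts1 as Adamts2 FPKM in the P1 hearts and 0.480 to 0.832 times as much in the P7 hearts, a range with no overlap in a pair chosen after its values were seen. Adamts6, which acts on microfibrils, had the highest mean of the Adamts genes over the 8 hearts. It had 16.5 to 22.8 FPKM in P1 and 11.7 to 20.8 in P7 (log2FC -0.45 ± 0.21, limma adjusted p = 0.28). Its P7 mean of 14.8 lay below those of several other Adamts genes, such as Adamts2 (15.9). Adamts17 had 1.78 to 3.12 in P1 and 3.95 to 4.48 in P7 without overlap (log2FC 0.58 ± 0.18, limma adjusted p = 0.11, and 0.039 without P1 replicate 4). Adamts8, named here after its values were seen, had 25.3 FPKM in P1 replicate 4 and 3.71 to 10.3 in the other 7 hearts. Adamts13, which cuts von Willebrand factor and is made by the liver, stayed at or under 0.380 FPKM. Summed over all Adamts genes, the P1 hearts held 88.2 to 169 FPKM and the P7 hearts 104 to 150, which overlapped widely.

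The Adamtsl proteins have no protease domain and bind to the fibrillin microfibrils of the matrix. All 5 were higher on average in P7, where 67.6% of tested annotated loci had a positive log2FC. Adamtsl5 passed the test at 4.87, 6.08, 5.83 and 7.33 FPKM in P1 and 10.6, 13.9, 16.4 and 9.04 in P7 (ratio 2.07, log2FC 0.92 ± 0.21, limma adjusted p = 0.035). Adamtsl4 had 4.65, 5.14, 5.003 and 5.42 in P1 and 9.70, 6.49, 9.22 and 9.21 in P7, with no overlap (log2FC 0.66 ± 0.18, limma adjusted p = 0.065, and 0.041 without P1 replicate 4). Adamtsl2 had 3.01 to 6.70 in P1 and 5.47 to 11.1 in P7 and overlapped. Adamtsl3 and Adamtsl1 had log2FC of 0.28 and 0.09.

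Base composition moved with these results. The called members had transcripts with a median GC content of 55.9%, against 49.7% for the other tested members and 49.2% for all tested annotated loci with a value. Among the 24 members with at least 53% GC, 11 were called (45.8%), against 22.2% of annotated loci in that range, and among the 23 members below it 1 was called (4.35%), against 2.80%. The limit of 53% was set after the values were seen. After GC correction the log2FC of the 12 called members stayed positive, those of Adam10 and Adam9 turned from negative to positive (0.17 and 0.11), and adjusted p ranged from 0.045 for the joined Adam1a locus and 0.064 for Timp2 to 0.23 for Adamts10 and 0.24 for Adamtsl5 (limma). The corrected log2FC was 0.88 for Timp2 and Mmp14, 0.92 for Mmp2, 0.96 for Mmp11, 0.88 for Mmp15, 0.86 for Adam19, 0.87 for Adam15 and 0.79 for Adamts2. It was lowest for Adamts7 (0.61), Adamts10 (0.65) and Adamtsl5 (0.52). The part of GC content in the differences between stages was not tested beyond this.

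**Figure D5:**
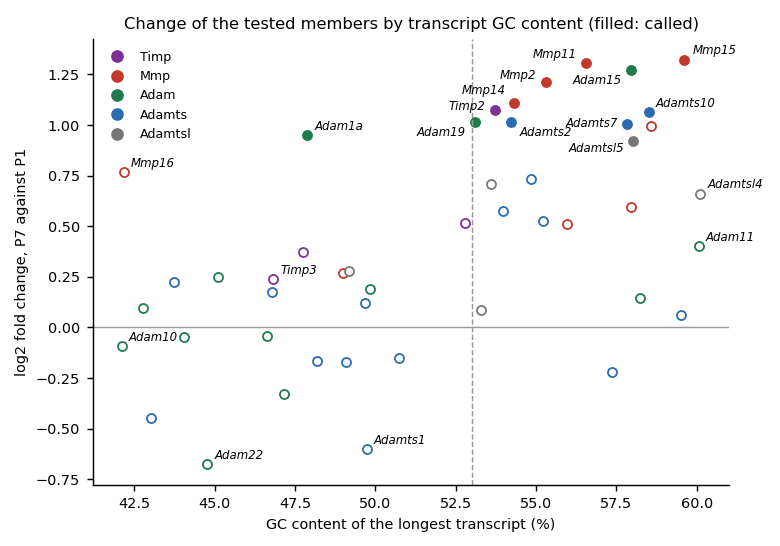
Log2FC of P7 against P1 (vertical axis) by the GC content of the longest transcript in percent (horizontal axis) for the 47 tested members, coloured by family and filled where called, with a dashed line at 53%. Of the 12 called members 11 lie to the right of the line, and Adam1a is the one to the left.

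Fibroblast markers were higher in the same hearts. Of 7 marker genes, 5 rose (Tcf21, Col1a1, Dpt, Dcn and Lum), while Pdgfra and Col1a2 did not pass. Summed, the 7 genes gave between 554 and 999.9 FPKM in P1 and between 1261 and 1636 in P7, without overlap. Dcn, which encodes the matrix proteoglycan decorin and has a GC content of 37.4%, had 121, 89.6, 109 and 200.4 FPKM in P1 and 321, 242, 296 and 276 in P7 (log2FC 1.18 ± 0.25, limma adjusted p = 0.026).

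Set against Dcn within each heart, several called members stood at overlapping proportions in the 2 stages. Mmp2 stood at 0.163 ± 0.0140 of Dcn in P1 and 0.171 ± 0.0222 in P7, Mmp14 at 0.214 ± 0.0303 and 0.207 ± 0.0233, and Timp2 at 0.476 ± 0.108 and 0.438 ± 0.0450 (SD, n = 4). For Adamts2 these values were 0.0585 ± 0.00753 and 0.0557 ± 0.00298, and for Mmp11 0.0715 ± 0.00316 and 0.0843 ± 0.0160. All of these ranges overlapped. Mmp15 stood at 0.196 ± 0.0522 and 0.217 ± 0.0354 of Dcn, which overlapped as well. Relative to the cardiomyocyte gene Tnnt2 it stood at 0.0243 ± 0.00378 in P1 and 0.0369 ± 0.00556 in P7, without overlap, whereas the ranges of Mmp2, Mmp14 and Timp2 to Tnnt2 overlapped. These pairs were chosen after values were seen and carry no test, and the part of the number of fibroblasts was not tested.

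The other marker lists gave fewer calls or none. Of the cardiomyocyte markers 0 of 6 passed, of the endothelial ones 2 of 6 (Cdh5 and Tie1), of the smooth muscle and pericyte ones 2 of 8 (Pdgfrb and Kcnj8), of the macrophage ones 0 of 5 tested, of the mast cell ones 0 of 5 tested and of the epicardial ones 0 of 6. The neutrophil marker Retnlg was the 1 of 5 tested that fell (log2FC -1.22 ± 0.23, limma adjusted p = 0.019). Retnlg reached FPKM 1 only in P1 hearts, so it entered the test through the stage where it was high. Erythroid markers (0 of 4) and markers of Schwann cells and nerve (0 of 3 tested) did not pass.

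Other genes of extracellular proteolysis were taken from a list of 82 symbols, of which 80 were found and 62 tested. Of these, 20 rose and none fell, with a median log2FC of 0.48. Leaving out 1 heart gave 3 to 29 called genes (3 without P1 replicate 2, 4 without P7 replicate 1 or 3, and 8 without P1 replicate 3), and GC correction left 7. The background is the 7.74% of annotated loci called higher, and the list is one that was drawn up with earlier results of these data known.

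Among the enzymes that activate proteases, Pcsk6, a proprotein convertase, had FPKM of 5.55, 3.05, 2.51 and 9.14 in P1 and 21.7, 16.5, 20.7 and 18.6 in P7 (log2FC 1.87 ± 0.29, limma adjusted p = 0.0087). Furin, the convertase that activates Mmp14 and Mmp11, had 5.95 to 12.5 in P1 and 15.3 to 17.4 in P7 without overlap and did not pass (log2FC 0.70 ± 0.22, limma adjusted p = 0.10). None of the 5 tested genes of the plasminogen system passed, with 0 to 0.622 FPKM of plasminogen (Plg) itself.

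Of the 4 tested genes of the procollagen C-proteinase family and its enhancers, 3 rose. Bmp1, the proteinase itself, had log2FC 1.34 ± 0.25 (limma adjusted p = 0.018), and its enhancers Pcolce and Pcolce2 had 0.91 ± 0.21 and 1.71 ± 0.19. Pcolce2 lay at 0.435 to 0.921 FPKM in P1 and 3.59 to 5.67 in P7. The procollagens Col1a1 (log2FC 0.94) and Col3a1 (1.55) rose as well, and so did Comp (0.96), the named substrate of Adamts7, from 0.220 to 0.463 FPKM in P1 to 1.43 to 2.02 in P7. Comp and Pcolce2 stayed under FPKM 1 in every P1 heart, so both entered the test only through P7, where they were high. Pcolce shares its locus with Fbxo24, so its value belongs to both.

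Of the inhibitors and clearance receptors, Lrp1, which takes up protease and inhibitor complexes, rose with log2FC 1.08 ± 0.21, the cathepsin inhibitor Cst3 with 1.00 ± 0.19, and Bsg, an inducer of Mmps, with 1.202 ± 0.22 (limma adjusted p of 0.020, 0.018 and 0.018). Reck, a membrane-anchored Mmp inhibitor, lay at 1.89 to 2.73 FPKM in P1 and 1.89 to 3.03 in P7 and did not pass. A2m, a broad plasma protease inhibitor, had 0.651 to 2.12 in P1 and 0.169 to 0.361 in P7, with every P7 heart below every P1 heart, and did not pass either (log2FC -0.77 ± 0.23, limma adjusted p = 0.084). A2m reached FPKM 1 only in P1 hearts, so it entered the test through the stage where it was high.

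Among the 6 tested partners that carry the sheddases through the cell, 4 rose. Of the tetraspanins that escort Adam10, Tspan15 and Tspan17 rose (log2FC 0.99 ± 0.19 and 1.07 ± 0.22), and so did Rhbdf1 and Rhbdf2, which carry Adam17 to the cell surface (0.93 ± 0.24 and 0.96 ± 0.20). Among shed proteins, Tnfrsf1a and the endothelial cadherin Cdh5 rose (0.88 ± 0.18 and 0.96 ± 0.23), and 10 further tested ones did not pass. Whether the partners and the sheddases differed from each other was not tested. Of the other matrix proteases, Ctsd, Htra1, Htra3 and Fap rose, with log2FC between 0.95 and 1.55, where Ctsd is listed at a locus joined with Ifitm10.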

How the data were processed

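Total RNA of 8 hearts (4 P1, 4 P7) was ribodepleted, made into libraries with the ScriptSeq v2 kit and sequenced in pairs on an Illumina HiSeq instrument. A service provider mapped the reads to GRCm38 with Ensembl release 70 annotation for the authors, and the aligner is not given in the sources used here. The deposited values are FPKM per assembled locus, normalized by the authors' provider to locus length and library size, with 80155 loci per heart. The kit keeps strand, and whether counting used it is not stated. No fragment counts were used. Depth was read from the steps of low FPKM values (1 fragment at 1 kb, 0.0441 to 0.0699 FPKM), of which 87.6% to 99.3% per heart lay within 0.1 of a whole number of fragments. These steps cover counting error only.

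Loci that reached FPKM 1 in any heart were tested with limma 3.58.1 in R 4.3.3 on log2(FPKM + 1), a pseudocount of 1, with eBayes trend, no covariates and Benjamini-Hochberg adjustment over all 43172 tested loci. The script was tested on simulated data. Replicate numbers did not pair the hearts (correlation of deviations of same-numbered hearts -0.10 to 0.12), so no block was used. The p-values measure the spread between mice.

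The gene families whose symbols define the members, and the gene lists, were chosen with earlier results of these data known. Members with values in every heart were those called, those whose stages did not overlap, the 12 with the highest mean FPKM, the Timp genes, and fixed Mmp, Adam and Adamts genes of known roles, given as ranges where the result did not turn on them. Mmp16, Mmp19, Adamts8, Adamts20 and the other Adamtsl genes were named after their values were seen. Partner genes named were those called and those of highest mean FPKM in their group, and others such as Reck, A2m, Plg and Vcan were named after their values were seen. GC content and coding sequences came from the longest GENCODE M21 transcript. GC content was known for all 47 tested members and 85.9% of tested annotated loci, and GC correction (lowess, span 0.3) was added after the files were seen. Zinc sites were first searched with a glycine codon before the last histidine, which 56 members have, and then without that condition. Locus positions in the files can span overlapping genes. Python 3.11.15, pandas 2.3.3, numpy 2.4.6, statsmodels 0.14.6, biopython 1.88 and matplotlib 3.10.9 were used. The sites of chromosome 18 are not reported here.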

Additional observations from a re-analysis of the deposited data

Results flagged for a closer look

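In a group of 4 hearts, a value was noted when its gap to the nearest heart took a larger part of the range of the group than Dixon's 95% critical value for 4 samples. Of 116 groups, 10 met this, where about 1 in 20 (5.8) would be met by chance. In P1, replicate 4 was the high heart for Adam9 (gap 0.915 of the range), Adamts8 (0.874), Adamts5 (0.871), Adamts10 (0.855) and Adamts13 (0.830). In P7, replicate 3 was the high heart for Mmp15 (0.901) and Mmp17 (0.851), and replicate 1 for Mmp1a (1.00), which was listed at 0 in the other 3 P7 hearts. The low hearts were P7 replicate 2 for Adamtsl4 (0.847) and P7 replicate 4 for Adamts9 (0.843).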

How the results depend on the processing

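Over the 18 alternatives, the 12 called members were higher in P7 wherever they were fitted, and the 31 tested named members gave 427 results on the same side of the threshold, 109 weaker and 16 stronger. Leaving out 1 heart in turn gave 0 to 18 called members, 0 to 17 higher and 0 to 1 lower, against 199 to 3379 called loci in all and 3 to 29 called partner genes. The counts of 0 members came when P1 replicate 2, or replicate 1 or 3 of P7, was left out, and fewer hearts were then in the fit. Without a filter 4 members passed, all 4 higher (686 loci, and a median log2FC of 0.0058 over all 84 members). With FPKM of at least 1 required in every heart, 18 members passed, 17 higher and 1 lower (2711 loci). Median-ratio scaling gave 16 members, 3 of them lower (2368 loci, 896 of them lower). Without the eBayes trend 6 members passed, all higher (1079 loci). GC correction left 1 member (the joined Adam1a locus), higher in P7, with 496 loci and 7 partner genes. The cause of these differences was not tested beyond the construction of each fit. Numbers 1 to 4 do not pair the hearts: with the replicate number as a block 10 members passed (Adamtsl5 and Adam1a did not, at limma adjusted p of 0.053 and 0.064) among 1283 loci, and with GC correction and the replicate block 1 member passed (Mmp16, higher), with 563 loci and 6 partner genes. The ratio of summed Mmp to Timp FPKM was 1.13 in P1 and 1.41 in P7, and 2.98 and 5.36 without Timp2. The wider difference without Timp2 follows from leaving out the only Timp that rose. The 37 members that did not reach FPKM 1 are given without a test.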
